A study of Homo sapiens with 8 samples.

Results

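The interferon response genes are the transcripts that cells switch on after interferon binds its receptor, and they were followed here in A375 melanoma cells in which heat shock factor HSF1 was knocked down and the chaperone HSP90 was inhibited. The set was given as 41 gene symbols, which stand for 40 genes because DDX58 and RIGI are 1 gene. All probe sets of the array that carried a single symbol, that of a member, were used, which gave 67 probe sets of 39 genes out of 19775 genes with a single-symbol probe set. STAT2, a member, matched no such probe set and was not analysed here.

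RNA of A375, an established human melanoma cell line, was hybridised to 8 HG-U133 Plus2 arrays, which fall into 4 groups of 2. The cells carried a hairpin RNA that Doxycycline (Dox) switches on, either against HSF1 (shHSF1, a single hairpin labelled sh1999) or a non-targeting one (shNTC). The first group, shHSF1 Dox HSP990, received 100 ng/ml Dox for 3 days and then 100 nM of the HSP90 inhibitor NVP-HSP990 for 3 h. The second, shHSF1 HSP990, received the inhibitor at the same dose and time without Dox. The third, shNTC Dox DMSO, received Dox and then 0.1% DMSO for 3 h, and the fourth, shNTC DMSO, received DMSO without Dox. The inhibitor groups were all shHSF1 cells and the DMSO groups all shNTC cells, so the inhibitor and the cell line cannot be told apart. The labels give no separate culture for the 2 arrays of a group, so p-values measure only the spread between these arrays, which may be technical. The growth notes name Dox for every line, and the groups with and without Dox follow the sample titles.

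Interferons act through paired surface receptors on the kinases JAK1 and TYK2, which activate transcription factors. A complex that holds IRF9 then binds the interferon-stimulated response element in promoters. The genes behind it sense foreign RNA, block its translation, degrade it or present antigen, and many tumour cells keep some of them on without added interferon. HSF1 drives a separate programme, that of the heat shock proteins, and is released when HSP90 is inhibited.

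To show what the members share in sequence, RefSeq promoters (GRCh38.p14, 250 bases before to 50 after each start site) were searched on both strands for GAAANNGAAA, read as TTTCNNTTTC on the other strand, the core of the response element. Matches were allowed to overlap. Of 33 members with a promoter in the table, 24 (72.7%) held at least 1 match, against 4.38% of all 27305 genes and 3.57% of all 35116 promoters. The heat shock element, searched as GAANNTTCNNGAA and TTCNNGAANNTTC, was found in 0 of the 33 and in 0.608% of all genes, and the gamma-activated sequence TTCNNNGAA in 11 of the 33 (33.3%) and in 9.38% of all genes. A match is a description and not a site in use, and no match says only that these letters were not in this window.

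The upstream stretches of 4 members that had a call lower in the comparisons given later, IFIT1, ISG20, IFI44 and PARP9, are shown with those of 2 members that did not, ISG15 and IFIT5. SAMD9L also had calls lower, on single probe sets, but its promoter held no match, so it has no stretch here. Capitals mark the matches and each stretch ends before or at the base preceding the start site. A further IFIT5 match, which begins 4 bases before the start site and runs past it, is cut off by that end and stands in lower case. The coordinates are chr10:89392487-89392549 (plus strand) for IFIT1, chr15:88638927-88638976 (plus) for ISG20, chr1:78649751-78649800 (plus) for IFI44, chr3:122564312-122564361 (minus) for PARP9, chr1:1013364-1013419 (plus) for ISG15 and chr10:89414503-89414567 (plus) for IFIT5.
IFIT1: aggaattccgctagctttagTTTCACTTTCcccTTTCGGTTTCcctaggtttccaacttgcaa
ISG20: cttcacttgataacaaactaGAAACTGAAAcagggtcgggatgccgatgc
IFI44: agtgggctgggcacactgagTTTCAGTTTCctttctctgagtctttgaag
PARP9: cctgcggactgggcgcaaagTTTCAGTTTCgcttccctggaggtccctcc
ISG15: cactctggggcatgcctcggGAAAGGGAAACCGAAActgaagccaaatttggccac
IFIT5: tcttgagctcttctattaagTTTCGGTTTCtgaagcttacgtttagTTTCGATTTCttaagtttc
In IFIT1 the matches began 116 and 103 bases before the start site, in ISG20 69 bases, in PARP9 41 bases before the second of its start sites, and in ISG15 113 and 107 bases before it. IFI44 has a pair of start sites in the table, and the stretch shown belongs to the second, with its match 60 bases upstream of it.

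**Figure D1:**
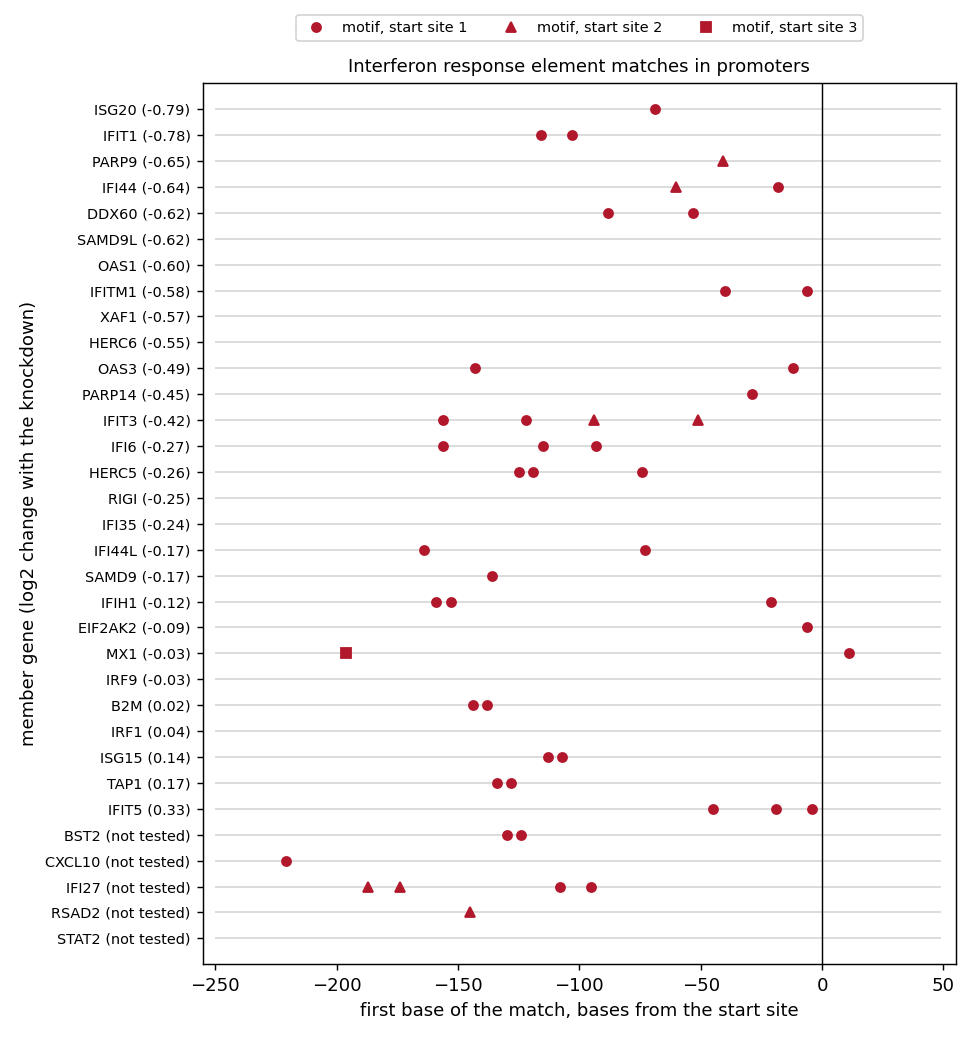
Position of each match to GAAANNGAAA or its reverse complement in the promoters of the 33 members in the RefSeq table, as the distance in bases of its first base from the start site (x axis), with genes ordered by their log2 change with the HSF1 knockdown, in brackets. Matches lie in genes with low values, such as ISG20 (-0.79) and IFIT1 (-0.78), and also in ISG15 (0.14) and IFIT5 (0.33), while SAMD9L, OAS1, XAF1 and HERC6 show none.

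The array values are MAS5 signals on a linear scale. Tests used log2 of the signal plus 16 in limma over all 8 arrays, and a gene was called at a Benjamini-Hochberg adjusted p under 0.05 over all 12672 genes tested (1 probe set a gene, the brightest on average). Log2 changes are on the scale of signal plus 16 and understate the change of dim genes. Of the 39 members, 31 were at or above the median of their own array on all 8 arrays, 4 on some of them and 4 on none. Those at or above it on none, BST2, CXCL10, RSAD2 and IFI27, were not tested, and 35 were. Array medians were 10.6 to 14.2. The hairpin's target HSF1 had signals of 5.5 and 7.3 in shHSF1 Dox HSP990 against 99 and 42.5 in shHSF1 HSP990, a log2 change of -1.87 (SE 0.29, adjusted p = 0.00754, and 0.0652 with only the arrays of the comparison). The ratio of the 3-prime to the 5-prime control of ACTB, a sign of RNA integrity, was 46.8 on array 2 of shNTC Dox DMSO and 4.73 to 18.9 on the other 7 arrays.

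The knockdown comparison set shHSF1 Dox HSP990 against shHSF1 HSP990 and asked how the members changed when HSF1 was lowered during HSP90 inhibition. Most members had lower signals, but none passed the test as a gene in the fit without a replicate block. Of 35 tested members, 29 (82.9%) had a log2 change below 0, against 49.8% of all tested genes, and the median was -0.26, against 0.0015 over all genes. Called were 0 members, while 2.84% of all genes were called, 1.85% as lower. With the first and the repeat arrays as a factor in the fit, IFI44, IFIT1 and ISG20 were called lower, where 5.93% of all genes were called. At an unadjusted p under 0.05 the limma fit gave 11 members, all lower (8.83% of all genes were lower at this level). The Student t-test named in the study's methods gave 0 after Benjamini-Hochberg and 6 without it, where 11.2% of all genes passed in either direction. In 20 of the 35 both arrays with Dox lay below both arrays without it (21.8% of all genes), and in 0 both lay above (21.5%). The members' median standard error was 0.21. In bulk RNA, less transcript per cell and fewer cells that carry it cannot be told apart.

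**Figure D2:**
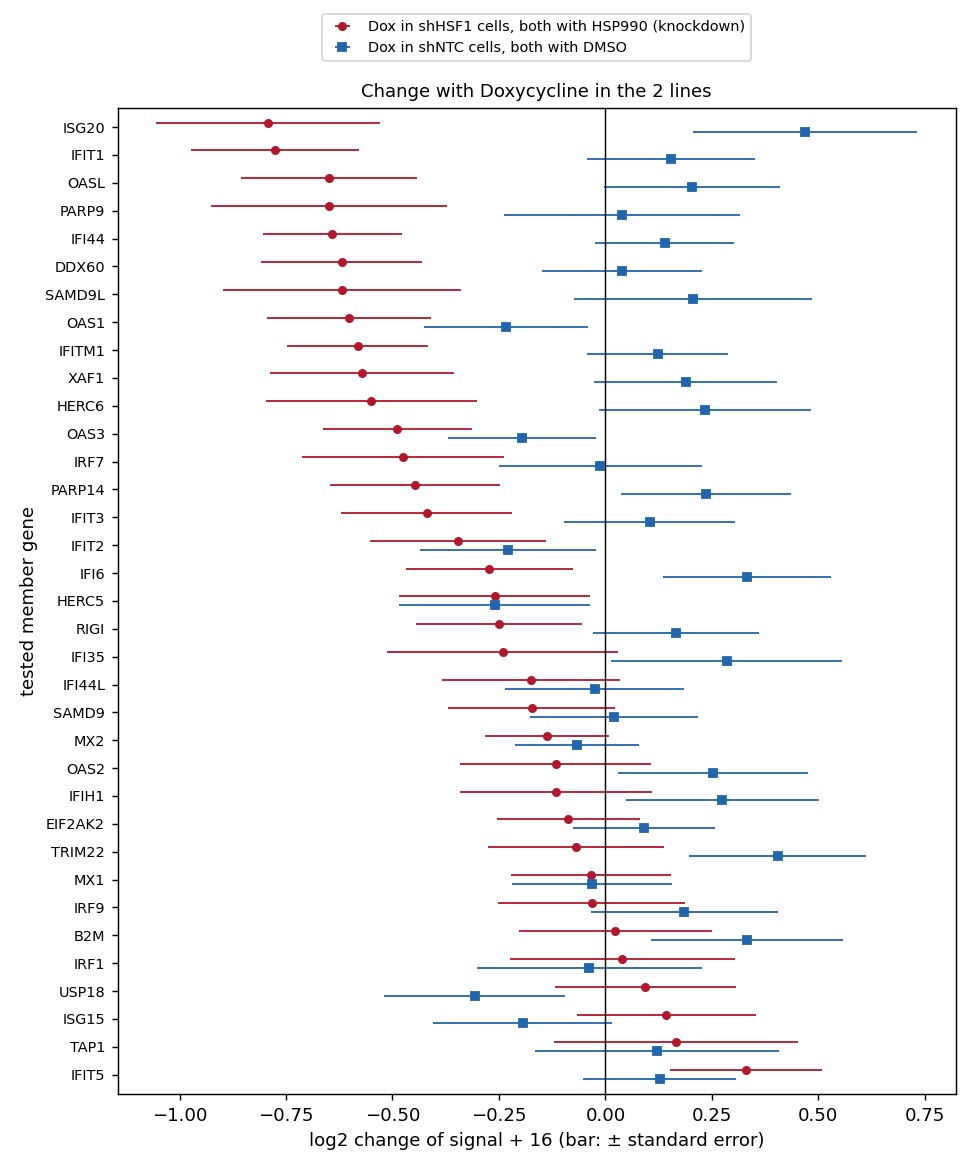
Log2 change of signal plus 16 (x axis, bars are ± standard error) of the 35 tested members (y axis) with Dox in shHSF1 cells under HSP990 (circles) and with Dox in shNTC cells under DMSO (squares), 2 arrays against 2 each. The circles span -0.79 for ISG20 to 0.33 for IFIT5 and lie below 0 in 29 genes, whereas the squares span -0.31 for USP18 to 0.47 for ISG20 and lie below 0 in 11.

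**Figure D3:**
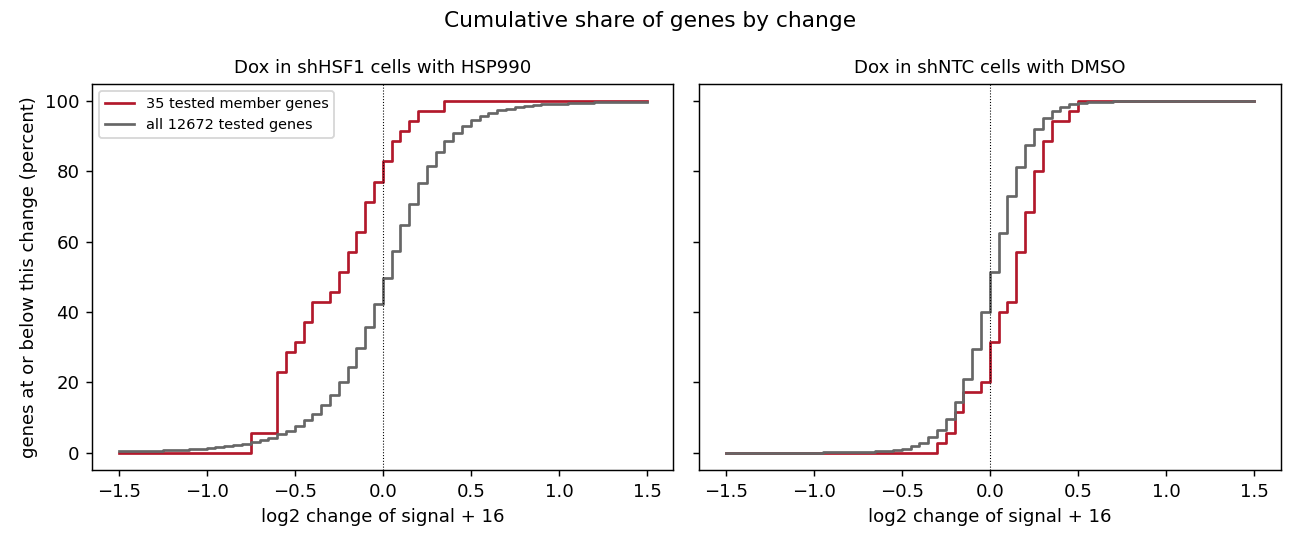
Percent of genes at or below a log2 change (x axis, signal plus 16) for the 35 tested members and for all 12672 tested genes, with the knockdown (left) and with Dox in shNTC cells (right). At 0 the member curve stands at 82.9% and the curve of all genes at 49.8% on the left, and on the right the member curve stands at 31.4% and that of all genes at 51.5%.

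Among the transcription factors of the response, no tested member passed. IRF7, the amplifier of type I interferon production, had 48 and 32.4 in shHSF1 Dox HSP990 against 77.3 and 48.1 in shHSF1 HSP990 (log2 change -0.47, SE 0.24, adjusted p = 0.38), with both Dox arrays below both others by a narrow margin. IRF9, the DNA-binding part of the complex that binds the response element, had 46 and 32.6 against 48.4 and 32.9 in the same groups, a change of -0.03. IRF1, an early responder that interferon gamma strongly induces, had 42.8 and 27.6 in shHSF1 Dox HSP990 against 30.5 and 36.2 in shHSF1 HSP990 (0.04), and the 2 groups overlapped. The second IRF1 probe set, 238725_at, had a change of -0.35, so the probe sets of this gene differed in sign.

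The RNA sensors had values below 0 in 3 of 3 genes. DDX60, a helicase that promotes RIG-I signalling, had signals of 90 and 92.8 in shHSF1 Dox HSP990, 165.9 and 133.6 in shHSF1 HSP990, 144.7 and 131.3 in shNTC Dox DMSO and 132 and 135.5 in shNTC DMSO. The shHSF1 Dox HSP990 arrays were the lowest of the 8, with no overlap, and the log2 change with the knockdown was -0.62 (SE 0.19, adjusted p = 0.13). RIGI, the sensor of RNA ends, had 73.3 and 64.2 in shHSF1 Dox HSP990 against 94.4 and 75.6 in shHSF1 HSP990 (-0.25). Its probe set 242961_x_at may also match related sequence, and the 3 RIGI probe sets ranged over -0.25 to 0.0054. IFIH1, the sensor of long double-stranded RNA, had 34.2 and 23.8 in shHSF1 Dox HSP990 against 39.6 and 26.2 in shHSF1 HSP990 (-0.12), and these groups overlapped.

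The RNA-binding and RNA-degrading effectors held the lowest values, with 9 of 10 genes below 0 and a median of -0.45. IFIT1 (probe set 203153_at, gene at chr10:89392623-89406487), which binds RNA without the host's cap methylation, had signals of 16.7 and 16.5 in shHSF1 Dox HSP990, 43.9 and 36 in shHSF1 HSP990, 59 and 47.9 in shNTC Dox DMSO and 52.4 and 40.6 in shNTC DMSO. The shHSF1 Dox HSP990 arrays stood below the other 6 without overlap, and the change was -0.78 (SE 0.20, adjusted p = 0.069). ISG20 (204698_at, chr15:88635632-88656483), an exonuclease that degrades single-stranded RNA, had 102 and 71.3 in shHSF1 Dox HSP990, 191.1 and 133.2 in shHSF1 HSP990, 278.1 and 181.8 in shNTC Dox DMSO and 176.6 and 141.5 in shNTC DMSO. Its change was -0.79 (SE 0.26, adjusted p = 0.16), and its second probe set, 33304_at, gave -0.91.

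The neighbours of IFIT1 on chromosome 10 differed in value. IFIT3, which stabilises IFIT1 on RNA, had 160.7 and 144.7 in shHSF1 Dox HSP990 against 231.3 and 189.3 in shHSF1 HSP990 (-0.42). IFIT2, an RNA-binding effector with AU-rich preference, had 86.3 and 78.2 against 118.2 and 100 in the same groups (-0.35). Both genes had no overlap between these groups. IFIT5, an RNA-binding member of the family, had the highest change of the members, 0.33 (SE 0.18, adjusted p = 0.43), with signals of 1089 and 1285 in shHSF1 Dox HSP990 against 791.3 and 1109 in shHSF1 HSP990, which overlapped. Its second probe set gave 0.30. Differences between genes were not tested.

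Of the synthetases that make the activator of RNase L, OAS1 had 114.3 and 97.8 in shHSF1 Dox HSP990 against 166.5 and 171.1 in shHSF1 HSP990 (-0.60, SE 0.19, adjusted p = 0.15). OAS3, its largest relative, had 418.1 and 416.4 against 570.9 and 613.3 in the same groups (-0.49). OASL, a family member without synthetase activity that supports RIG-I, had 20 and 15.4 against 31.6 and 42.4 (-0.65, SE 0.21, adjusted p = 0.15). In these 3 genes the Dox arrays lay below the others. OAS2 had 44.5 and 26.4 in shHSF1 Dox HSP990 against 41.9 and 36.1 in shHSF1 HSP990 (-0.12), with overlap. EIF2AK2, the kinase PKR that stops translation, had 1660 and 1475 in shHSF1 Dox HSP990 against 1865 and 1484 in shHSF1 HSP990 (-0.09), and its probe set 204211_x_at may also match related sequence. The second OAS1 and OAS3 probe sets gave -0.07 and 0.16, the latter at dim signals of 7.2 to 15.1 over the 8 arrays.

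ISG15, the ubiquitin-like modifier, and its enzymes divided evenly, with 2 of 4 below 0. ISG15 had 87.6 and 123.5 in shHSF1 Dox HSP990 against 88.5 and 97.4 in shHSF1 HSP990 (0.14, SE 0.21), and USP18, the protease that removes ISG15, had 86.6 and 63.7 against 73.9 and 63.9 in the same groups (0.09). Both genes overlapped between the groups. HERC6, a ligase of the HERC family, had 115.9 and 75 in shHSF1 Dox HSP990 against 174.4 and 119 in shHSF1 HSP990 (-0.55, SE 0.25, adjusted p = 0.33), and HERC5, the human ligase that attaches ISG15, had 15.7 and 23.4 against 24.9 and 27.8 (-0.26). The HERC pair had no overlap.

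Among the membrane and GTPase effectors 4 of 4 tested genes had values below 0. IFITM1, which hinders viral entry at membranes, had 2.7 and 3.9 in shHSF1 Dox HSP990 against 15.2 and 10.7 in shHSF1 HSP990 (-0.58, SE 0.17, adjusted p = 0.10). Its probe set, 214022_s_at, may also match other IFITM genes. It was at or above the median on only 2 of the 8 arrays, array 1 of shHSF1 HSP990 and array 1 of shNTC Dox DMSO. IFITM1 was thus tested only through groups where it was higher, and it counts in the members' totals. These include the counts without overlap and those at an unadjusted p under 0.05 in the knockdown and the interaction given later. With a stricter filter, which asked for at least 4 arrays including both of a group, 34 members were tested. Of these, 28 lay below 0 with the knockdown, with a median of -0.25. MX1, a dynamin-like GTPase, had 15.3 and 19.6 in shHSF1 Dox HSP990 against 18.5 and 17.8 in shHSF1 HSP990 (-0.03). MX2, its nuclear pore relative, had 489.5 and 489.9 against 552.5 and 528.2 in the same groups (-0.14), and TRIM22, a ubiquitin ligase, had 32.3 and 25.4 against 35.4 and 26.8 (-0.07). BST2, the tether of budding virus, and RSAD2, or viperin, were below the median on all 8 arrays, with BST2 at 0.5 to 8.5 and the brighter RSAD2 probe set at 1.9 to 3.9.

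The other induced genes were below 0 in 9 of 9 tested genes, with a median of -0.45. PARP9 (chr3:122527924-122564784), an ADP-ribosyltransferase family member that works with the ligase DTX3L, had on its probe set 227807_at 25.4 and 21.7 in shHSF1 Dox HSP990, 63.5 and 73.6 in shHSF1 HSP990, 56.8 and 58.9 in shNTC Dox DMSO and 61.2 and 49.3 in shNTC DMSO. This probe set fell by 1.10 on the log2 scale (SE 0.19, adjusted p = 0.0206 over 24631 probe sets) and was the 1 member probe set called of 53 tested (1.34% of all probe sets were called lower). The brighter PARP9 probe set, 223220_s_at, had 91.6 and 67.1 in shHSF1 Dox HSP990 against 179.9 and 96.1 in shHSF1 HSP990 (-0.65, adjusted p = 0.33 over the probe sets). The call on 227807_at was lost when any 1 of the 4 arrays of this comparison or array 1 of shNTC DMSO was left out, with an adjusted p of up to 0.155, and also without the filter on dim probe sets and with only the arrays of the comparison.

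IFI44 (214453_s_at, chr1:78649789-78664078), a protein of interferon-induced aggregates, had 704.9 and 535.8 in shHSF1 Dox HSP990, 1011 and 925.7 in shHSF1 HSP990, 1083 and 1032 in shNTC Dox DMSO and 1000 and 918.2 in shNTC DMSO. The shHSF1 Dox HSP990 arrays were again the lowest of the 8, and the change was -0.64 (SE 0.16, adjusted p = 0.069). The dimmer probe set 214059_at had 51.9 and 35.9 against 38.7 and 34.4 in the 2 shHSF1 groups (0.18), so the probe sets of IFI44 differed in sign. SAMD9L, which restrains protein synthesis and growth, had -0.62 on its brightest probe set, -0.42 on 226603_at and -0.59 on 235643_at, while its neighbour SAMD9 had 781.7 and 589.4 in shHSF1 Dox HSP990 against 839.6 and 701.6 in shHSF1 HSP990 (-0.17). PARP14, an ADP-ribosyltransferase, had 216.3 and 243.2 against 289 and 351.2 in the same groups (-0.45).

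XAF1, a partner of the apoptosis inhibitor XIAP, had 12.3 and 4.3 in shHSF1 Dox HSP990 against 24.8 and 15.1 in shHSF1 HSP990 (-0.57, SE 0.22, adjusted p = 0.22). Its value on array 2 of shHSF1 Dox HSP990 lay below that array's median. IFI6, a small membrane protein, had 14.4 and 12.2 against 17.8 and 21 in the same groups (-0.27). IFI35 and IFI44L had changes of -0.24 and -0.17, with overlap between the groups. IFI27 stayed at 6.7 to 11.9 on the 8 arrays, below each array's median. CXCL10, a chemokine that draws T cells, was at 0.1 to 4.6. Of the antigen presentation genes, TAP1, part of the peptide transporter, had 153 and 91.1 in shHSF1 Dox HSP990 against 137.6 and 77.7 in shHSF1 HSP990 (0.17), and B2M, the light chain of MHC class I, had 3426 and 3779 against 3672 and 3414 (0.02).

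**Figure D4:**
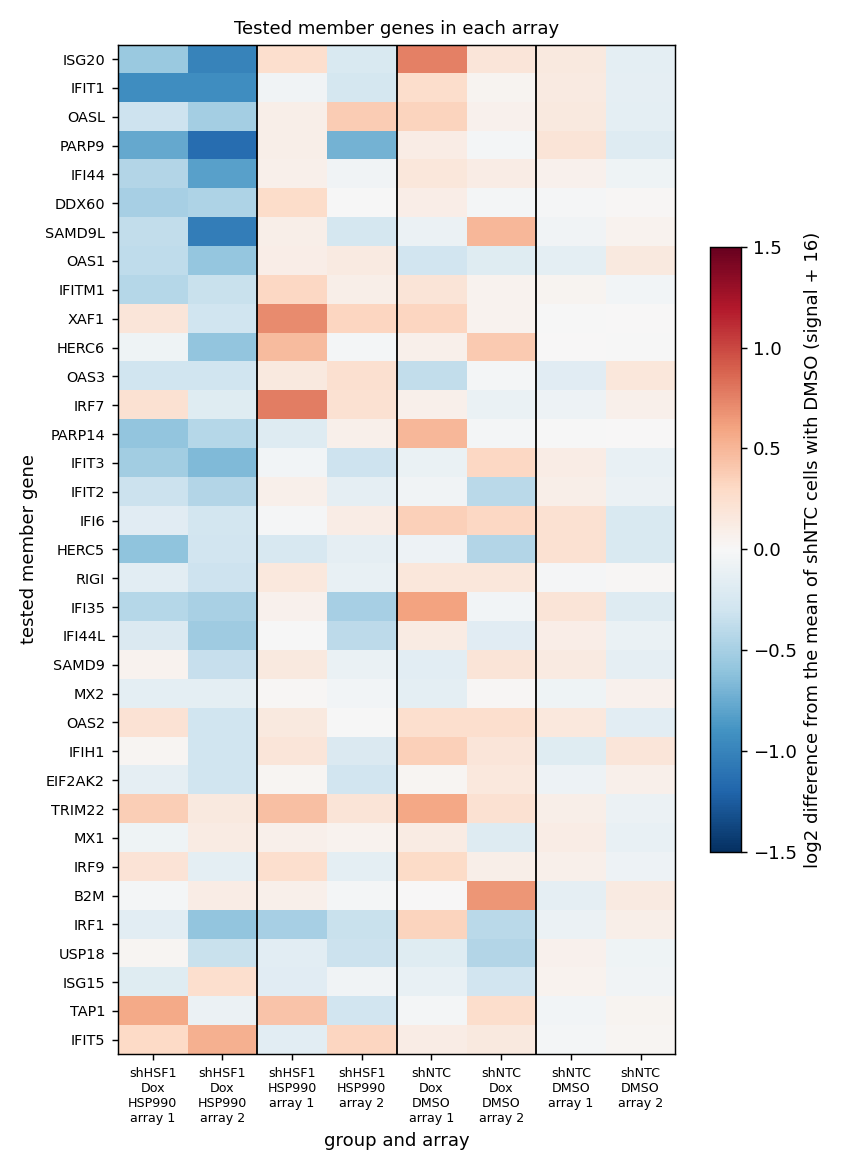
Log2 difference of each array from the mean of the shNTC DMSO arrays (signal plus 16, colour scale -1.5 to 1.5) for the 35 tested members (rows, lowest knockdown change at the top) on the 8 arrays (columns). The rows from ISG20 to DDX60 are blue on both shHSF1 Dox HSP990 arrays, and the rows from IRF1 to IFIT5 show no common colour there.

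Of the 15 members with several tested probe sets, all probe sets were below 0 with the knockdown in 9, all above 0 in 2 (B2M and IFIT5), and of both signs in 4 (IFI44, IRF1, OAS3 and RIGI). The probe set above 0 was near background in OAS3 (232666_at, at or above the median on 4 of 8 arrays) and RIGI (222793_at, on 6). In IFI44 and IRF1 it was at or above the median on all 8. Promoter matches did not separate the members by change. Of the 16 members with a promoter in the table whose Dox arrays both lay lower, 11 held the response element core, and of the 12 other tested members 9 did.

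The RNA control ratios overlapped between these groups. The ACTB ratio was 10.3 and 5.63 in shHSF1 Dox HSP990 against 18.9 and 8.27 in shHSF1 HSP990, and its part in the members' values was not tested. Array 2 had the higher median signal in both groups.

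Dox in control cells, shNTC Dox DMSO against shNTC DMSO, served as the check of hairpin induction itself. It was done with DMSO, and no array held shNTC cells with NVP-HSP990. A Dox effect present only under the inhibitor thus cannot be told apart from that of the knockdown. Called were 0 of 35 members and 0% of all genes, with 0 members at an unadjusted p under 0.05 in limma (2.41% of all genes). The methods' t-test gave 1 member before adjustment (4.64% of all genes) and 0 after it. The members leaned the other way here: 24 had a change above 0, and the median was 0.12, against -0.0064 over all genes. Both Dox arrays lay above both others in 12 members (11.8% of all genes) and below in 3 (16.7%), which were ISG15, OAS1 and USP18.

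The highest value was that of ISG20, whose signals are given above (0.47, SE 0.26, 95% interval -0.11 to 1.05), with both Dox arrays above both others. TRIM22 had 40.3 and 27.8 in shNTC Dox DMSO against 24 and 19.2 in shNTC DMSO (0.40, interval -0.06 to 0.86). IFI6 had 27.9 and 26.4 against 24.2 and 13.2 in these groups (0.33). B2M had 3498 and 5514 in shNTC Dox DMSO against 3160 and 3841 in shNTC DMSO (0.33), where the high array is the one with the ACTB ratio of 46.8. USP18 was at the low end, with 72.5 and 58.1 in shNTC Dox DMSO against 88.8 and 79.7 in shNTC DMSO (-0.31, interval -0.78 to 0.16). IFIT1 had a change of 0.15 (interval -0.28 to 0.59). The members' median was 0.057 without array 1 of shNTC Dox DMSO, with 14 members below 0, and 0.079 without array 2 of shNTC DMSO, with 12 below 0. It was 0.11 without array 2 of shNTC Dox DMSO and 0.15 without array 1 of shNTC DMSO.

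The interaction, which subtracts the Dox effect of the shNTC cells with DMSO from that of the shHSF1 cells with HSP990, tested the difference between these effects. It had 0 members called, with 0.789% of all genes called, and 9 members at an unadjusted p under 0.05, all negative (5.69% of all genes were negative at this level). The median was -0.39, and 29 of 35 members were below 0. The lowest were ISG20 (-1.26, SE 0.37, adjusted p = 0.20) and IFIT1 (-0.93, SE 0.28, adjusted p = 0.21), followed by OASL (-0.85) and SAMD9L (-0.82). A difference between these effects did not pass the test for any single member in the fit without a replicate block. This does not show that the effects were alike. With the first and the repeat arrays as a factor in the limma fit, ISG20 passed (adjusted p = 0.0274), where 2.2% of all genes were called. The interaction draws on the same arrays as the knockdown and Dox comparisons, and the Dox effects it compares also differ in the inhibitor and the line.

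NVP-HSP990 without Dox, shHSF1 HSP990 against shNTC DMSO, left the members near 0. Called were 0 of 35 (0.221% of all genes), and the limma fit gave 1 member at an unadjusted p under 0.05 (4.96% of all genes), XAF1. The methods' t-test gave 0 members with and without adjustment, against 5.52% of all genes without it. The median was 0.018, and 20 members had a change above 0. The sign of this median turned with single arrays: it was -0.049 with 24 members below 0 without array 1 of shHSF1 HSP990, -0.047 with 20 below 0 without array 2 of shNTC DMSO, and 0.086 with 10 below 0 without array 2 of shHSF1 HSP990. Without array 1 of shNTC DMSO it was 0.029. Both inhibitor arrays lay above both others in 4 members (17.6% of all genes), namely IFITM1, IRF7, TRIM22 and XAF1, and below in 2 (15.6%), IRF1 and USP18.

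XAF1 had 24.8 and 15.1 in shHSF1 HSP990 against 8.7 and 9.1 in shNTC DMSO (0.52, SE 0.22, adjusted p = 0.94). Both shNTC DMSO values lay below their arrays' medians of 12 and 11, and XAF1 was at or above the median on 4 of the 8 arrays. It was thus tested only through the other groups. IRF7 had 77.3 and 48.1 in shHSF1 HSP990 against 36.1 and 41.6 in shNTC DMSO (0.50, SE 0.24). IRF1 had the lowest value, with 30.5 and 36.2 in shHSF1 HSP990 against 45.5 and 53.9 in shNTC DMSO (-0.41, SE 0.26). PARP9 had -0.31 on its brightest probe set and 0.25 on 227807_at. SAMD9L 235643_at had 35.1 and 32.1 in shHSF1 HSP990 against 59.3 and 60.8 in shNTC DMSO (-0.62, adjusted p = 0.90). This comparison shares the shHSF1 HSP990 arrays with the knockdown.

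The knockdown with the inhibitor against control cells with Dox, shHSF1 Dox HSP990 against shNTC Dox DMSO, was where single members passed the test as genes. IFIT1, ISG20 and IFI44 fell, and no member was called higher. This was 3 of 35 members (8.57%), beside 2.99% of all genes called lower. Below 0 were 29 members, with a median of -0.31, against 0.014 over all genes. The median was -0.47 without array 1 of shHSF1 Dox HSP990 and -0.22 without array 2 of it. Both arrays lay lower in 19 members (20.9% of all genes) and higher in 1, IFIT5 (23.7%).

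IFIT1 fell by 1.09 (SE 0.20, adjusted p = 0.0112), with signals of 16.7 and 16.5 in shHSF1 Dox HSP990 against 59 and 47.9 in shNTC Dox DMSO. ISG20 fell by 1.25 (SE 0.26, adjusted p = 0.0218), with 102 and 71.3 against 278.1 and 181.8. IFI44 fell by 0.77 (SE 0.16, adjusted p = 0.0234), with 704.9 and 535.8 against 1083 and 1032, while its probe set 214059_at had -0.0024. All 3 calls were lost without array 2 of shHSF1 Dox HSP990 and without array 1 of shNTC Dox DMSO. The IFI44 call was also lost without array 2 of shNTC Dox DMSO, without array 2 of shNTC DMSO and with the mean of all its probe sets, and over the arrays left out the adjusted p reached 0.0650 for IFIT1, 0.135 for ISG20 and 0.185 for IFI44.

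Of the probe sets taken singly, 6 of 53 fell, beside 2.14% of all probe sets. They were the probe sets just named, PARP9 227807_at (-0.90, adjusted p = 0.0318), SAMD9L 226603_at (-0.80, adjusted p = 0.0496) and SAMD9L 235643_at (-1.24, adjusted p = 0.0116). SAMD9L 235643_at had 19.2 and 14.9 in shHSF1 Dox HSP990 against 50.4 and 74.9 in shNTC Dox DMSO. The 235643_at call was lost without array 2 of shHSF1 Dox HSP990 or array 2 of shNTC Dox DMSO (adjusted p up to 0.0959), and that on PARP9 227807_at without any array but those of shHSF1 HSP990 (up to 0.190). The 226603_at call of SAMD9L was lost whichever array was left out, with an adjusted p of 0.065 to 0.285. Without the filter, 1 of the 6 calls was left, that on SAMD9L 235643_at. Next to the threshold as genes stood PARP14 (-0.75, adjusted p = 0.057), PARP9 (-0.997, adjusted p = 0.067) and IFIT3 (-0.70, adjusted p = 0.077), and the highest value was that of IFIT5 (0.29). This comparison differs in the inhibitor, the line and the hairpin's target, and it shares arrays with the knockdown.

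**Figure D5:**
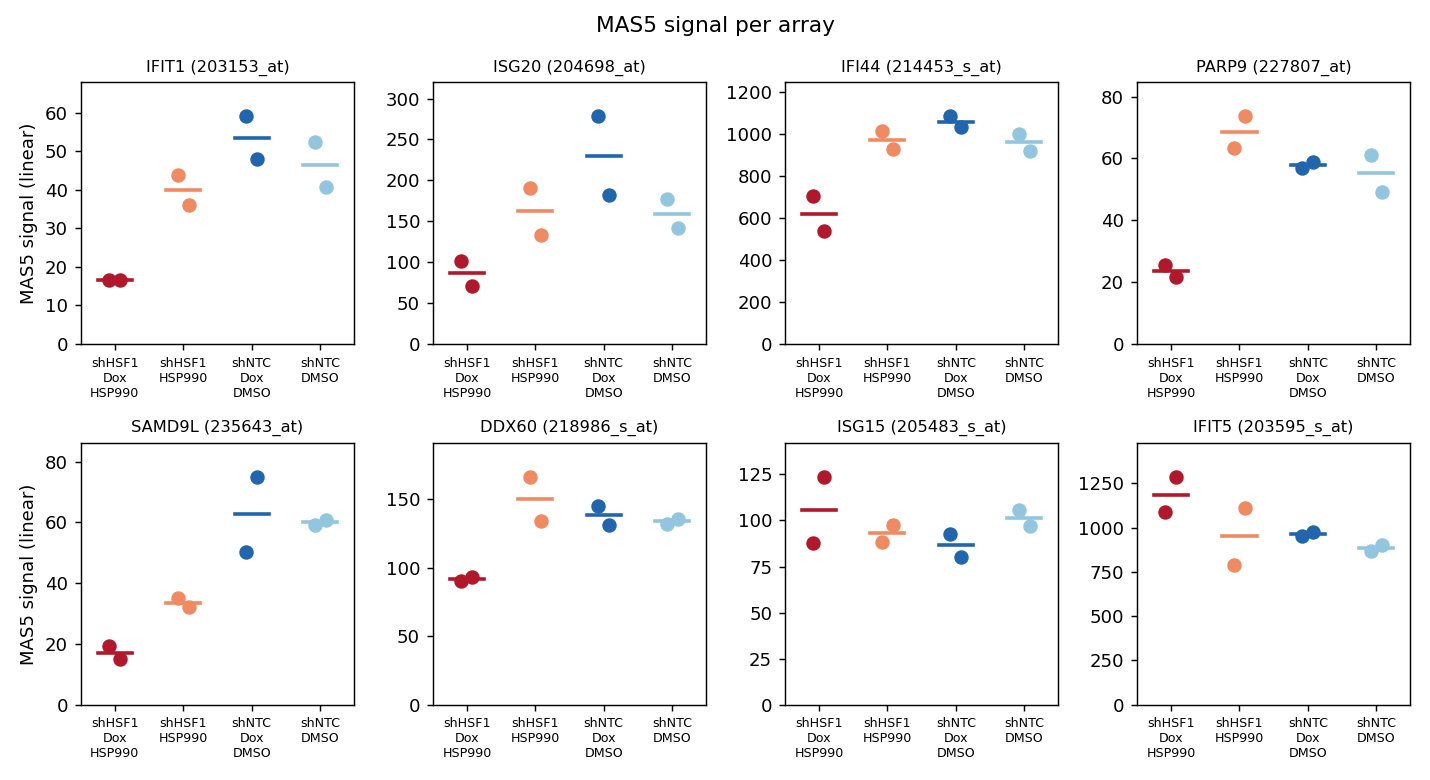
MAS5 signal (y axis, linear, from 0) of 8 member probe sets on each array (points) with the group mean (line), in shHSF1 Dox HSP990, shHSF1 HSP990, shNTC Dox DMSO and shNTC DMSO, 2 arrays each. IFIT1, ISG20, IFI44, PARP9, SAMD9L and DDX60 have both shHSF1 Dox HSP990 arrays below the other 6, at 16.7 and 16.5 for IFIT1, whereas ISG15 overlaps between the groups and IFIT5 has its highest array in shHSF1 Dox HSP990, at 1285. For PARP9 the probe set with the lowest change with the knockdown is shown, and for SAMD9L that with the lowest against shNTC Dox DMSO. The share of all genes with both arrays below the other 6 was not counted.

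Genes around the members in the pathway were read from a second list of 90 symbols, 66 of them tested. With the knockdown 2 fell (3.03%, beside 1.85% of all genes called lower), both further induced genes, and none was called higher. GBP3, a guanylate-binding GTPase, fell by 1.16 (SE 0.22, adjusted p = 0.0197), with 20.6 and 27 in shHSF1 Dox HSP990, 58.3 and 89.8 in shHSF1 HSP990, 31.8 and 26.8 in shNTC Dox DMSO and 30.8 and 31.6 in shNTC DMSO. ZC3HAV1, the zinc finger antiviral protein, fell by 0.78 (SE 0.16, adjusted p = 0.0283), with 326.8 and 294 in shHSF1 Dox HSP990, 592.8 and 502.1 in shHSF1 HSP990, 370.2 and 367.9 in shNTC Dox DMSO and 358.5 and 324.9 in shNTC DMSO. In both genes the shHSF1 HSP990 arrays were the highest of the 8, unlike in IFIT1, where the shHSF1 Dox HSP990 arrays were the lowest. With the inhibitor GBP3 had a change of 0.91 (adjusted p = 0.27) and ZC3HAV1 of 0.65 (adjusted p = 0.28). The GBP3 call was lost without either shHSF1 Dox HSP990 array or array 2 of shHSF1 HSP990 (adjusted p up to 0.108), and that of ZC3HAV1 without either shHSF1 Dox HSP990 array, array 1 of shHSF1 HSP990 or either shNTC DMSO array (up to 0.175). Both calls were lost with only the arrays of the comparison, that of GBP3 also without the filter, and that of ZC3HAV1 also with median centring and with the mean of its probe sets (adjusted p up to 0.104 for GBP3 and 0.127 for ZC3HAV1).

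Against shNTC Dox DMSO the knockdown with inhibitor had 2 other genes of this list called lower (3.03%, beside 2.99% of all genes). ADAR, the RNA-editing enzyme, fell by 1.10 (SE 0.21, adjusted p = 0.0127), with 1154 and 1047 in shHSF1 Dox HSP990 against 1962 and 2873 in shNTC Dox DMSO. IFI16, a DNA sensor, fell by 0.69 (SE 0.17, adjusted p = 0.0416), with 958.6 and 936.5 against 1718 and 1375 in these groups. The ADAR call was lost without array 2 of shHSF1 Dox HSP990 or array 2 of shNTC Dox DMSO (adjusted p up to 0.0900), and that of IFI16 without any of 5 arrays (up to 0.192), namely both of shHSF1 Dox HSP990, both of shNTC DMSO and array 1 of shNTC Dox DMSO. The IFI16 call was also lost without the filter, with median centring, without the trend and with only the arrays of the comparison (up to 0.0777). With the knockdown itself ADAR had -0.81 (adjusted p = 0.068) and IFI16 -0.50 (adjusted p = 0.17).

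By role, 24 of 27 further induced genes were below 0 with the knockdown, with a median of -0.35, and 7 of 16 antigen presentation genes, with a median of 0.04. The receptors and kinases had 5 of 10 below 0, and IFNAR1, a chain of the type I receptor, had 152.6 and 132.3 in shHSF1 Dox HSP990 against 179.6 and 128.1 in shHSF1 HSP990 (-0.09). JAK1 had 456.8 and 369.3 against 630.9 and 544.6 in the same groups, without overlap (-0.50, adjusted p = 0.16). In these groups its probe set 1552611_a_at had 91.1 and 67.4 against 171.4 and 134.2. Probe set 1552610_a_at had 60.7 and 50.5 against 142.1 and 67.9. The dim 239695_at was also lower, with 7 and 7.3 against 16.6 and 8, while 240613_at, not tested, had 4.5 and 4.6 against 0.6 and 0.6. Of the 9 ligands listed, 1 was tested, IFNE. IFNB1, the interferon beta gene, was at 0.1 to 2.5 on all 8 arrays and IFNG at 0.1 to 2.8, below every array's median.

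Markers of other cell types were read on the same arrays. The melanocyte list had 4 of its 8 measured genes, PMEL, MLANA, TYR and TYRP1, below the median on all arrays, so pigment genes that define differentiated melanocytes were at background, while MITF and SOX10 were above it. Its summed signal was 1986 to 2466 in shHSF1 Dox HSP990, 2675 to 2750 in shHSF1 HSP990, 2114 to 2820 in shNTC Dox DMSO and 2349 to 2792 in shNTC DMSO. Leukocyte markers summed to 1300 to 1717 in shHSF1 Dox HSP990, 1727 to 2278 in shHSF1 HSP990, 2163 to 2256 in shNTC Dox DMSO and 1912 to 2035 in shNTC DMSO, and PTPRC, CD3E and CD14, which define leukocytes, were below the median on all 8 arrays. Most of that sum came from CD74 and HLA-DRA, which interferon gamma also induces, and CD74 had 1336 and 922.5 in shHSF1 Dox HSP990 against 1802 and 1259 in shHSF1 HSP990.

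Of the plasmacytoid dendritic cell markers, 3 of 4 (CLEC4C, IL3RA and LILRA4) were below the median on all arrays. Fibroblast markers summed to 891 to 928.8 in shHSF1 Dox HSP990, 640 to 641.9 in shHSF1 HSP990, 500 to 603.1 in shNTC Dox DMSO and 602.6 to 621.9 in shNTC DMSO, carried by LUM, which rose with the knockdown (0.71, adjusted p = 0.0385), while COL1A2 and COL3A1 were below the median on all arrays. The LUM call was lost with any array left out but those of shNTC Dox DMSO (adjusted p up to 0.154), and in 5 of 10 other settings (up to 0.112), namely no filter, median centring, the mean of probe sets, no trend and only the arrays of the comparison. The part of these markers in the members' values was not tested.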

How the data were processed

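The authors deposited MAS5 signals, per the submitters' processing notes, which are intensity values on a linear scale; the MAS5 version is not given in the sources used here. Each array was scaled to a mean of 150 with 2 percent of its probe sets left out at either end, and no further normalization was applied. Of 54675 probe sets, 41091 had 1 gene symbol in the platform annotation, 1801 several, 11721 none and 62 were controls. Only the single-symbol ones were used, with the brightest on average standing for a gene. A gene was tested when at or above its array's median on at least 2 of 8 arrays, since depth has no meaning for arrays and their number limits the precision. The 5 comparisons were fitted on log2(signal + 16) with limma 3.58.1 (R 4.3.3), as a means model of 4 groups over all arrays with a trend in the variances (4 residual and 6.36 prior degrees of freedom), two-sided, adjusted over 12672 genes, and in a second fit over 24631 probe sets. Of these steps, only the gene fit of the knockdown comparison was tried on simulated data. All members were named by role, with the most changed and the most studied given per array; GBP3, ZC3HAV1, ADAR, IFI16, JAK1, LUM and CD74 were chosen once their values were known. The members and lists were chosen with earlier results of these data known. As alternatives served other constants added before taking log2, other filters, quantile normalization, median centring, the mean of probe sets, no trend, fewer arrays, a replicate block, the Student t-test of the methods and leaving out each array. Replicate numbers came from the titles. Promoters and gene positions are RefSeq's, on GRCh38.p14.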

Additional observations from a re-analysis of the deposited data

How the results depend on the processing

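The count of members called depended on the processing, while the side of 0 on which the members' median lay did not for the knockdown, in which the median was -0.37 to -0.20 with 1 array left out and -0.40 to -0.16 in 10 other settings, and 24 to 31 members were below 0. In those other settings it was -0.45 to -0.18 against shNTC Dox DMSO, 0.071 to 0.14 for Dox in shNTC cells and -0.025 to 0.023 for NVP-HSP990, on either side of 0. For the knockdown the gene count of 0 became 1 with quantile normalization (IFIT1), 3 with the mean of all probe sets (IFIT1, IFITM1 and PARP9) and 6 with the methods' t-test before adjustment. IFITM1, tested only through groups where it was higher, is in the counts with the mean of probe sets and the unadjusted t-test. This holds for the knockdown and against shNTC Dox DMSO. The probe set count of 1 became 0 without the filter, with only the arrays of the comparison and with the t-test after Benjamini-Hochberg, 9 before adjustment, and 0 to 1 with an array left out. Against shNTC Dox DMSO the gene count of 3 became 6 with the mean of probe sets, 0 with the t-test after Benjamini-Hochberg and 6 before, and 0 to 5 with an array left out. It was 0 without array 2 of shHSF1 Dox HSP990 or array 1 of shNTC Dox DMSO, 5 without array 1 of shHSF1 HSP990 and 3 without array 2 of shNTC Dox DMSO, whose ACTB ratio stands apart. The probe set count of 6 became 1 without the filter, 3 with only the arrays of the comparison, 0 with the t-test after Benjamini-Hochberg and 12 before, and 0 to 7 with an array left out. Over all genes, quantile normalization called 3.5% with the knockdown, and the mean of probe sets 2.48% with it and 5.37% against shNTC Dox DMSO. The t-test before adjustment passed 11.2% of all genes with the knockdown and 10.5% against shNTC Dox DMSO. It gave 2 member probe sets for NVP-HSP990 and 1 member gene and 1 probe set for Dox in shNTC cells (4.64% of all genes). The cause was not tested.

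A replicate block, with the first and the repeat arrays as a factor, gave 3 genes, all lower, and 5 probe sets with the knockdown (adjusted p = 0.0232 for IFI44, 0.0300 for IFIT1 and 0.0213 for ISG20), 6 genes against shNTC Dox DMSO, and 1 gene and 1 probe set (ISG20 on both) in the interaction. Deviations of same-numbered arrays correlated at 0.685 between the shHSF1 groups, which are those of the knockdown, and at 0.464 between the shNTC groups. Between a shHSF1 and a shNTC group they correlated at 0.0156 to 0.276. The titles mark array 2 of each group as a repeat, but no label says what the repeats share. With 2 arrays a group they were not taken as pairs in the main fit. The block moved the count over all genes with the knockdown to 752 (5.93%), beside 360 (2.84%) without it. Against shNTC Dox DMSO it called 9.76% of all genes, beside 5.83% without it, and in the interaction 2.2%, beside 0.789%. No member changed direction while called. With 2 arrays a group, small changes were not detectable. The 95% intervals given are not adjusted for the number of genes, so one that leaves out 0 need not go with a call. IFIT1 with the knockdown had an interval of -1.21 to -0.34 and was not called in the fit without the block.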
